A study of Mus musculus with 6 samples.

Results

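The 10 genes described here, Hspa5, Hsp90b1, Calr, Sdf2l1, Herpud1, Xbp1, Atf4, Ddit3, Atf3 and Trib3, belong to the unfolded protein response of the endoplasmic reticulum and to the integrated stress response that overlaps with it. They were taken by name, as every probe set annotated to exactly 1 symbol that is one of these 10, with no filter on dim signals. This gave 23 probe sets out of 45037, and 10 genes out of 18193. On this array each transcript is read by 1 or more probe sets, pools of short oligonucleotides with a shared target. Brain RNA of 6 female mice of a single litter, aged 123 days, had been hybridised to Affymetrix Mouse Genome 430 2.0 arrays, 1 array for each mouse. The 4 knockout mice were MTf -/- with the strain given as C57BL/6 - Lucy, and the 2 wild-type mice were MTf +/+ with the strain given as C57BL/6. MTf is melanotransferrin, a relative of serum transferrin that sits in the cell membrane and binds iron, and Meltf is its gene. The labels do not say how the allele was made or from how many founder lines it comes. The only comparison in the design is knockout against wild type, and the mice are numbered by order of deposit, which names them and does not pair them.

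Proteins that enter the secretory pathway fold in the endoplasmic reticulum with the help of resident chaperones. When unfolded protein builds up, the sensors IRE1, PERK and ATF6 in its membrane respond. IRE1 splices the mRNA of Xbp1, ATF6 is cut and moves to the nucleus, and both raise chaperones and the machinery that sends misfolded protein back to the cytosol for destruction. PERK phosphorylates the initiation factor eIF2alpha, which slows translation in general but favours that of ATF4, and ATF4 in turn induces Ddit3, Atf3 and Trib3. Several of these steps, among them the splicing of Xbp1 and the translation of ATF4, change the protein without a matching change in mRNA, and the array signals described here measure mRNA only.

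By limma 0 of the 23 probe sets had an adjusted p below 0.05, against 0% of all 45037, and the smallest adjusted p among them was 0.738. The median log2 fold change, knockout minus wild type, was 0.0037 over the 23 probe sets and 0.078 over all probe sets. By sign, 11 of the 23 were below 0, against 39.7% of all. An unadjusted p below 0.05 was reached by 3 probe sets, 2 above 0 and 1 below, where 6.76% of all probe sets reached it, 4.92% above 0 and 1.84% below. The groups did not overlap for 2 of the 23, 1 in each direction, against 16.1% of all probe sets. With so few members past either mark, neither count is read as a result about these genes. On the brightest probe set of each gene 5 of the 10 were below 0, and after median centring all 10 were, as were 13367 of all 18193 genes. Herpud1, which encodes a membrane protein of the degradation machinery, had the smallest unadjusted p of the set, and its brighter probe set lay below wild type in every knockout mouse.

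**Figure D1:**
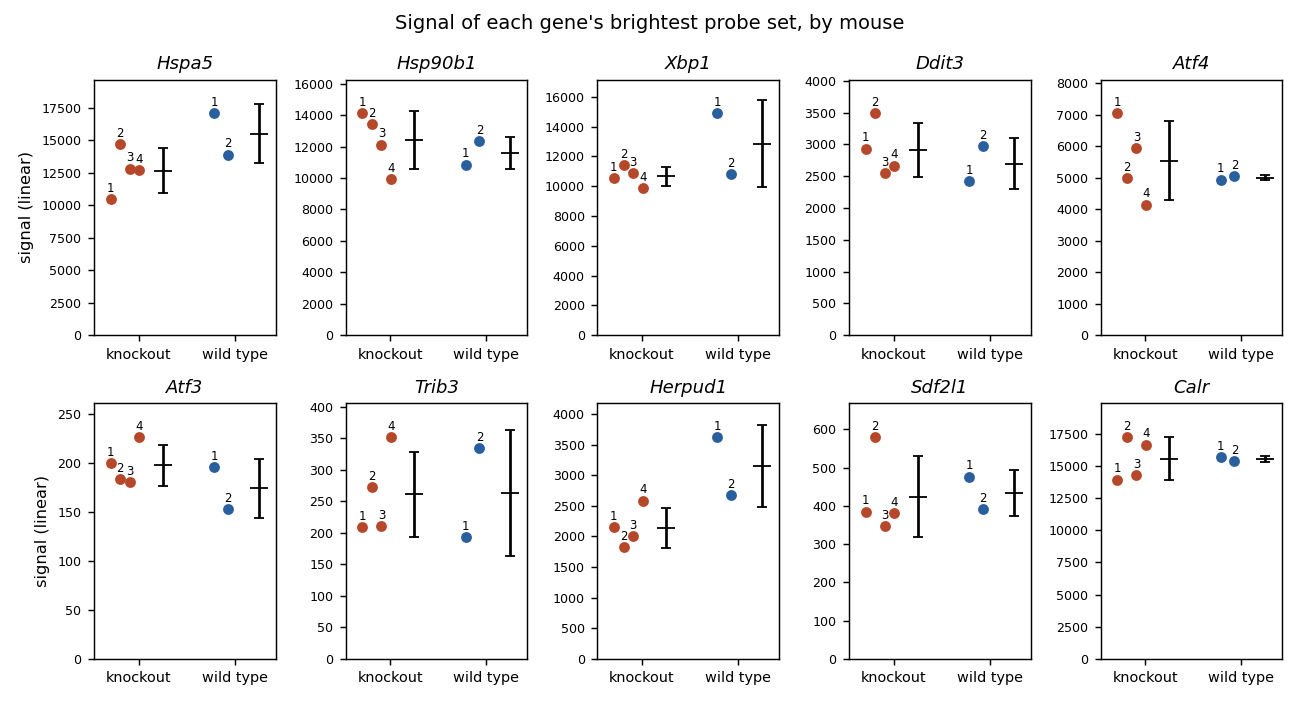
Signal on a linear scale (vertical axis, arbitrary units) of the brightest probe set of each of the 10 genes, for the 4 knockout mice (red) and the 2 wild-type mice (blue), numbered by mouse; the black bars give mean and SD. Herpud1 is the only one of these 10 panels in which the groups do not overlap, with knockouts from 1824 to 2585 against 2676 and 3628 in wild type.

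Several arrays stood apart from the rest, each on its own measure. Wild type 1 had the lowest median signal, at 192.5 against 238.2 to 278.3 on the other 5, although the trimmed mean was 1000 on every array. The 3' to 5' ratio of Gapdh, a measure of RNA integrity, was 1.05 in wild type 1 against 0.826 to 0.909. The same ratio for actin was instead highest in knockout 4, at 2.75 against 1.83 to 2.15 in the other knockouts and 2.35 and 2.06 in wild type. Knockout 4 also had the highest median signal and the lowest mean correlation with the other arrays, 0.957. Cerebellar markers were low in knockout 2, and all 9 cerebellum markers measured were lowest on it, with summed signals of 109347.6, 11240.5, 82317 and 118100.3 in knockouts 1 to 4, against 105951 and 119741 in the wild-type mice. In bulk tissue fewer cells of a type and less RNA per cell cannot be told apart. All 8 brain markers measured were well above the offset on every array, among them Snap25, a synaptic protein, at 54355 to 61027 in the knockouts and 45275 and 60502 in wild type. Of the 8, 6 had log2 fold changes above 0 and 2 below. Those 2 were the astrocyte genes Gfap and Aqp4, at -0.63 and -0.64, with unadjusted p of 0.00461 and 0.00527 and adjusted p of 0.738 for both in limma. Gfap read 1819, 2043, 1911 and 2449 in the knockouts and 3806 and 2678 in wild type, and Aqp4 5901, 4117, 5316 and 5881 in the knockouts and 9520 and 7085 in wild type. For both the knockouts lay wholly below wild type, with wild type 1 highest. The dimmer Aqp4 probe sets, at -0.41 and -0.39, overlapped between groups. The only Meltf probe set was dim and overlapped between groups, at 80.7, 132.9, 155.9 and 84.1 in the knockouts and 146.5 and 228.7 in wild type, and its log2 fold change was -0.55 (standard error 0.38, limma adjusted p = 0.784). Whether it lies inside the deleted stretch is not known here, so it does not check the labels.

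Promoter sequences are shown for the members that hold a known element of the response, except Trib3, whose match began 14 bases after the start. The window examined ran from 250 bases before to 50 bases after the annotated start of each gene, from RefSeq on build GRCm38.p6. All 10 members were found there by symbol. The endoplasmic reticulum stress element, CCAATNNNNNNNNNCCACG, is read by ATF6 together with the CCAAT-binding factor NF-Y. On either strand it was found for 3 of the 10 members, Hspa5, Hsp90b1 and Calr, and in 0.119% of all 32851 promoter windows. Its second form, ATTGG and CCACG with any 1 base between them, was found for Herpud1 only among the 10, and in 0.0365% of all windows. The amino acid response element read by ATF4, searched as TGATGNAA, was found for Atf3, Trib3 and Herpud1, and in 3.97% of all windows. The letters TGACGTGG, bound by XBP1 and ATF6, were not in any of the 10 windows and were in 0.676% of all. None of the matched letters overlapped those of another motif. In the sequences below, written 5' to 3' on the strand of the gene, capitals mark the matched letters: the 250 bases upstream of Hspa5 (chr2:34771840-34772089, plus strand), the most studied target of the response, and of Herpud1 (chr8:94386179-94386428, plus strand), the member with the smallest p, and then the shorter matches of other members with 5 bases on each side.
Hspa5 promoter: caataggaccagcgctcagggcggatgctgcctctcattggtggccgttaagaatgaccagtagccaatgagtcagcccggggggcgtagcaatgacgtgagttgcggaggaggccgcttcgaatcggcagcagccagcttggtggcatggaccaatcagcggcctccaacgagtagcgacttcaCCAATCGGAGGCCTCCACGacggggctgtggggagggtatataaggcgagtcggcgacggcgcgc
Herpud1 promoter: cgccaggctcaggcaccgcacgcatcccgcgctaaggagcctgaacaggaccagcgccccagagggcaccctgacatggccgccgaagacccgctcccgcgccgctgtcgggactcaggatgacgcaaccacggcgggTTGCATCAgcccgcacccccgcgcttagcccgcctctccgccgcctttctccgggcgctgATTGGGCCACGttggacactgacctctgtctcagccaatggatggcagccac
Hsp90b1, distal match: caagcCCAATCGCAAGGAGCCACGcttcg
Hsp90b1, proximal match on the opposite strand: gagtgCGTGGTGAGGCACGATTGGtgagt
Calr, match on the opposite strand: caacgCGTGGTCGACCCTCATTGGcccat
Atf3, amino acid response element on the opposite strand: cgcacTTGCATCAccaag
The Hspa5 element began 65 bases before the start, and the second-form element of Herpud1 began 52 bases before it. The Hsp90b1 matches lie on chromosome 10 at 86705638 to 86705656 and 86705533 to 86705551, that of Calr on chromosome 8 at 84847075 to 84847093, and that of Atf3 on chromosome 1 at 191183436 to 191183443. A match is a description of the letters and not evidence of binding. Of the 3 genes with the stress element, Hspa5, Hsp90b1 and Calr had log2 fold changes of -0.29, 0.087 and -0.0061 on their brightest probe sets, none of which passed the test.

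Hspa5 encodes BiP, the main Hsp70 chaperone of the endoplasmic reticulum and the usual marker of its stress. Its brightest probe set read 10466, 14741, 12822 and 12694 in knockouts 1 to 4, against 17112 and 13902 in the wild-type mice. Wild type 1 was the highest of the 6 arrays and knockout 1 the lowest, and wild type 2 lay within the knockout range. The mean was 12681 ± 1748 (SD, n = 4) for knockouts and 15507 ± 2269.9 (SD, n = 2) in wild type, a log2 fold change of -0.29 (standard error 0.17, 95% interval -0.67 to 0.082, limma adjusted p = 0.755). Against wild type 2 alone it was -0.14, and against wild type 1 alone it was -0.44. The next brightest gave -0.19, with the same order of arrays at its top: 7765 in wild type 1 and 7398 in knockout 2.

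The dimmest Hspa5 probe set, one whose name ends in _x_at, went the other way. It read 2785, 3462, 3003 and 2787 in knockouts 1 to 4, against 2216 and 2636 in the wild-type mice. All 4 knockout mice lay above both wild-type mice, with wild type 1 the lowest array here and the highest on the other Hspa5 probe sets. The fitted log2 difference was 0.30 (standard error 0.14, interval -0.0082 to 0.62, limma adjusted p = 0.741), and 0.18 without wild type 1. Names of probe sets that end in _x_at mark, in the Affymetrix naming scheme, probes that can also bind similar sequences of other transcripts. The second Atf4 probe set by brightness, the dimmer Trib3 probe set and both dimmer Calr probe sets have the same ending. The 3 Hspa5 probe sets gave no common direction for BiP mRNA.

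Hsp90b1 encodes GRP94, the Hsp90 chaperone of the endoplasmic reticulum. On its brighter probe set it read 14139.6, 13445, 12128 and 9929 in the knockouts and 10858 and 12337 in wild type. Both wild-type values lay inside the knockout range. On the log2 scale the difference was 0.087 (standard error 0.17, interval -0.28 to 0.46), and it was -0.0042 without wild type 1 and -0.13 after median centring. The dimmer probe set had the log2 fold change farthest from 0 of the 23, 1.10 (standard error 0.40). It read 3224, 4139, 2777 and 2867 in the knockouts against 739.7 and 2870.4 in the wild-type mice. Wild type 2 lay among the knockouts and wild type 1 alone was apart. Without wild type 1 the log2 fold change was 0.16 (limma unadjusted p = 0.482, exact permutation p over all 6 arrays 0.2), and with wild type 1 as the only wild-type array it was 2.05 (limma adjusted p = 0.0151), the single member value past the threshold under any of the alternatives.

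Calr encodes calreticulin, the lumenal lectin chaperone that binds glycoproteins and stores calcium. Its brightest probe set read 13945, 17280.1, 14303 and 16673 in the knockouts and 15705 and 15394 in wild type. Both wild-type values lay between the pairs of knockouts, and the means were 15550.4 ± 1672 (SD, n = 4) and 15549.6 ± 220.1 (SD, n = 2). Knockout minus wild type was -0.0061 with an interval from -0.34 to 0.32, and those of the next brightest and the dimmest were -0.13 and 0.013. The span of 0.14 between its 3 probe sets was the narrowest among the 8 genes with more than 1 probe set. The interval leaves room for a Calr difference of up to those sizes in either direction.

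Sdf2l1 encodes a partner of BiP and its DnaJ co-chaperones, and its gene lies on chromosome 16 (17130138 to 17132383 on GRCm38.p6), as Meltf does (31878629 to 31899020). Its only probe set read 385, 581, 348 and 382 in the knockouts and 476.5 and 392 in wild type. Knockout 2 was the highest array and knockout 3 the lowest. The fitted log2 difference was -0.049 (standard error 0.26, interval -0.64 to 0.54, limma adjusted p = 0.976). Without knockout 2, the mouse with little cerebellar RNA, it was -0.20, and the part of that tissue difference in the value was not tested.

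Herpud1 encodes Herp, an endoplasmic reticulum membrane protein that helps assemble the complex that extracts misfolded proteins. Its brighter probe set read 2148, 1824, 2007 and 2585 in knockouts 1 to 4, against 3628 and 2676 in the wild-type mice. All 4 knockout mice lay below both wild-type mice, although knockout 4 and wild type 2 were only 2585 and 2676. Among all probe sets, 4.81% had knockouts that lay wholly below wild type. The mean was 2141 ± 325 (SD, n = 4) for knockouts and 3152 ± 674 (SD, n = 2) in wild type, 1.46-fold lower on the scale of the fit, with a log2 fold change of -0.54, a standard error of 0.17 and an interval from -0.93 to -0.16. The unadjusted p was 0.0107 and the adjusted p 0.738 in limma, so it did not pass. The exact permutation p was 0.0667, the smallest that 15 splits of 4 against 2 can give.

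The Herpud1 value was negative with any single array left out, from -0.76 to -0.33, where -0.33 was the value without wild type 1, with an unadjusted p of 0.133 in limma. The dimmer probe set read 1213, 860.1, 1120.4 and 1031 in the knockouts against 1565 and 924.8 in wild type. Here the groups overlapped, since only knockout 2 lay below wild type 2. Its log2 fold change was -0.19 (standard error 0.22, limma adjusted p = 0.868), with 0.17 when wild type 1 was left out. Both Herpud1 probe sets were thus highest in wild type 1, which was the highest array for 20.8% of all genes on their brightest probe sets. On their brightest probe sets Gfap and Aqp4, the astrocyte genes, moved with the brighter Herpud1 probe set. Wild type 1 was highest, wild type 2 next and all knockouts below, and without wild type 1 they were -0.38 and -0.43. The summed signal of 7 endothelium markers was also highest in wild type 1, at 10053. It was 6163 to 7621 in the knockouts and 7401 in wild type 2, and 5 of the 7 fold changes were below 0. The part of these genes in the Herpud1 value was not tested.

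**Figure D2:**
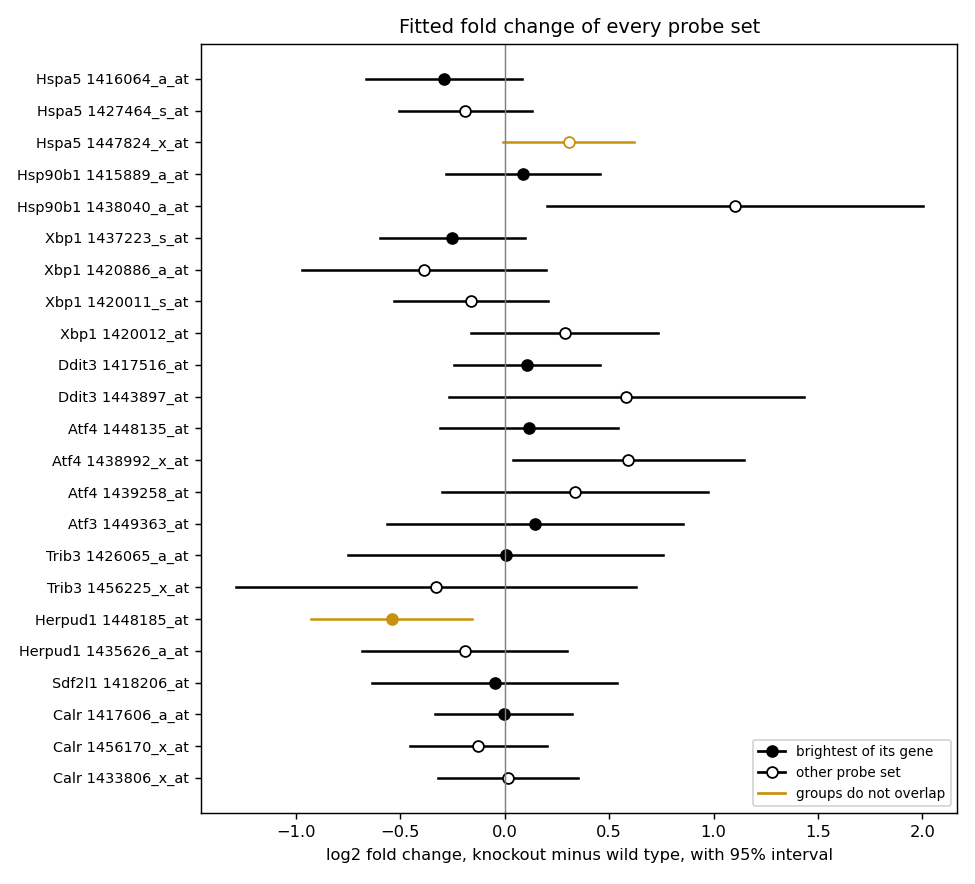
Log2 fold change, knockout minus wild type, with its 95% interval from limma (horizontal axis) for each of the 23 probe sets, with filled points for the brightest probe set of a gene and orange where the groups do not overlap. The intervals of 3 probe sets leave out 0, those of Herpud1 at -0.54, Hsp90b1 at 1.10 and Atf4 at 0.59, before any adjustment for the number of probe sets.

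Xbp1 encodes the transcription factor that IRE1 activates by splicing, and whether any probe set tells its spliced from its unspliced mRNA is not known here. The brightest read 10535, 11394, 10854 and 9885 in the knockouts and 14912 and 10809 in wild type. Wild type 2 lay inside the knockout range, and wild type 1 was the highest array. On the log2 scale the difference was -0.25 (standard error 0.16, interval -0.60 to 0.095, limma adjusted p = 0.765), and -0.021 without wild type 1. The next 2 in brightness gave -0.39 and -0.16, also with wild type 1 as the highest array, and the dimmer of them was 0.044 without it. The dimmest gave 0.29, with 596 in wild type 1 as its lowest value. Xbp1 thus showed the same split as Hspa5, with the bright probe sets highest in wild type 1 and the dimmest lowest in it.

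Atf4 encodes the transcription factor at the centre of the integrated stress response. Its brightest probe set read 7057, 4994, 5953 and 4144 in the knockouts and 4941 and 5065 in wild type. The knockouts spread on both sides of the wild-type pair, from 4144 in knockout 4 to 7057 in knockout 1. Knockout minus wild type was 0.12 (standard error 0.19, interval -0.31 to 0.54), and it was -0.0074 without knockout 1 and -0.096 after median centring. A second probe set read 5731, 3559, 4581 and 3806 in the knockouts and 2111 and 3883 in the wild-type mice. Again wild type 1 alone was apart: the log2 fold change of 0.59 (standard error 0.25, unadjusted p = 0.0383 and adjusted p = 0.738 in limma) was 0.16 without that array. The third was below the added offset of 49.6 on 5 of 6 arrays, and gives no level for this gene.

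Ddit3 encodes CHOP, the factor that links lasting stress to cell death. On its brighter probe set it read 2934, 3492, 2552 and 2667 in the knockouts and 2417 and 2978 in wild type. The groups overlapped, with knockout 2 highest and wild type 1 lowest. The fitted log2 difference was 0.11 (standard error 0.16, interval -0.25 to 0.46, limma adjusted p = 0.898), with -0.042 when wild type 1 was left out and -0.11 after median centring. The dimmer probe set was below the offset on 4 of 6 arrays, with 111.1 in knockout 2 and 97.9 in knockout 4 as the exceptions.

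Atf3 encodes a stress-induced repressor that neurons also switch on after injury. Its only probe set was dim and read 199.7, 184, 181 and 227 in the knockouts and 196 and 153 in wild type. Only wild type 2 lay below the knockouts. On the log2 scale the difference was 0.15 (standard error 0.32, interval -0.56 to 0.85, limma adjusted p = 0.937), and it was -0.068 after quantile normalisation. Immediate early genes, which can be induced together with Atf3, had 7 of 8 log2 fold changes above 0, as did 9759 of all 18193 genes. The exception was Npas4 at -0.37. Their summed signals were 33037 to 45240.3 in the knockouts and 28976 and 30410.5 in wild type. Egr1 was the largest part of each sum, at 14329 to 21021 in the knockouts and 12772 and 10512 in wild type. The part of these genes in the Atf3 value was not tested.

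Trib3 encodes a pseudokinase that ATF4 and CHOP induce and that restrains Akt signalling. The brighter of its probe sets read 209, 273, 211 and 352 in the knockouts and 192.5 and 334 in wild type. Wild type 1 was the lowest of the 6 arrays and wild type 2 the second highest. Knockout minus wild type was 0.0037 (standard error 0.34), from -0.33 without wild type 1 to 0.34 without wild type 2. The dimmer probe set gave -0.33 (standard error 0.43). The intervals, -0.75 to 0.76 and -1.29 to 0.63, were among the widest of the 10 genes.

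**Figure D3:**
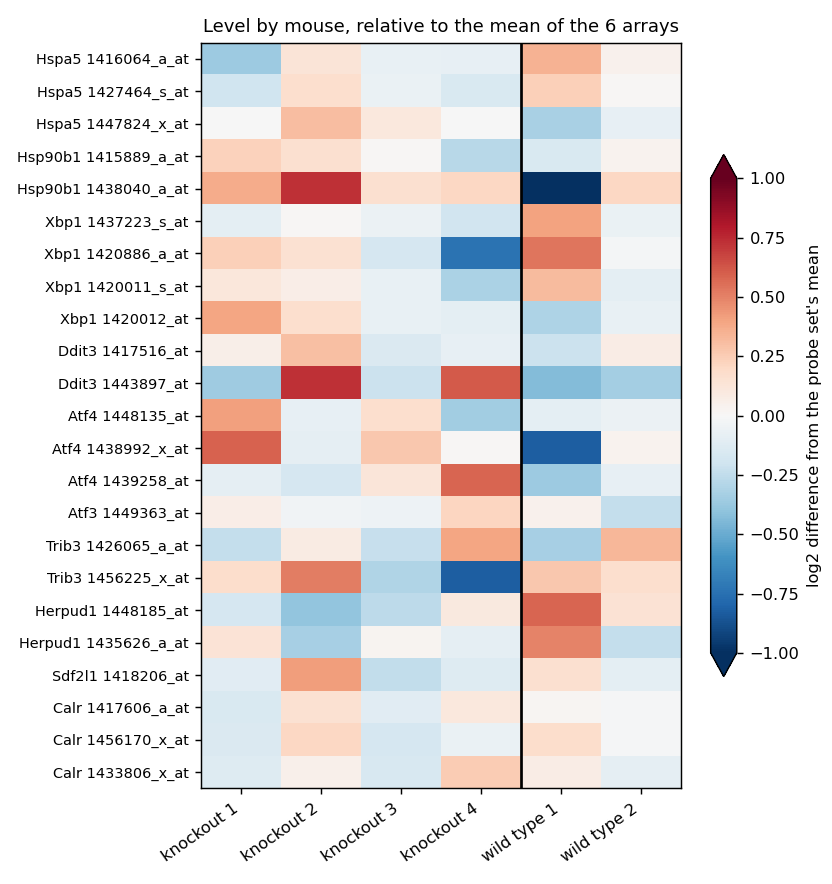
Level of each of the 23 probe sets on each array as a log2 difference from that probe set's mean over the 6 arrays (colour, red above and blue below the mean, with the scale ending at -1 and 1), with the 4 knockouts left of the line and the 2 wild types right of it. No block of one colour separates knockouts from wild types, while the strongest blue of the map is the dimmer Hsp90b1 probe set in wild type 1 at -1.68, beyond the scale, and the strongest red is the dimmer Ddit3 probe set in knockout 2 at 0.73.

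Wild type 1 was the highest of the 6 arrays for 7 of the 23 probe sets and the lowest for 8, or 30.4% and 34.8%, where among all probe sets it was highest for 15% and lowest for 31%. Wild type 2 was the highest for 0 and the lowest for 1. Without wild type 1, 0 of the 23 reached an unadjusted p below 0.05 in limma, where 3.61% of all probe sets did, and 0 passed after adjustment. Without wild type 2, 6 reached it, 3 in each direction, where 11.8% of all did, and 1 passed after adjustment, as did 171 of 45037. Without knockout 2 and wild type 1 together, 0 reached it, where 3.48% of all did. Of the 8 genes with more than 1 probe set, 4 had fold changes of both signs among their own probe sets: Hspa5, Xbp1, Trib3 and Calr.

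**Figure D4:**
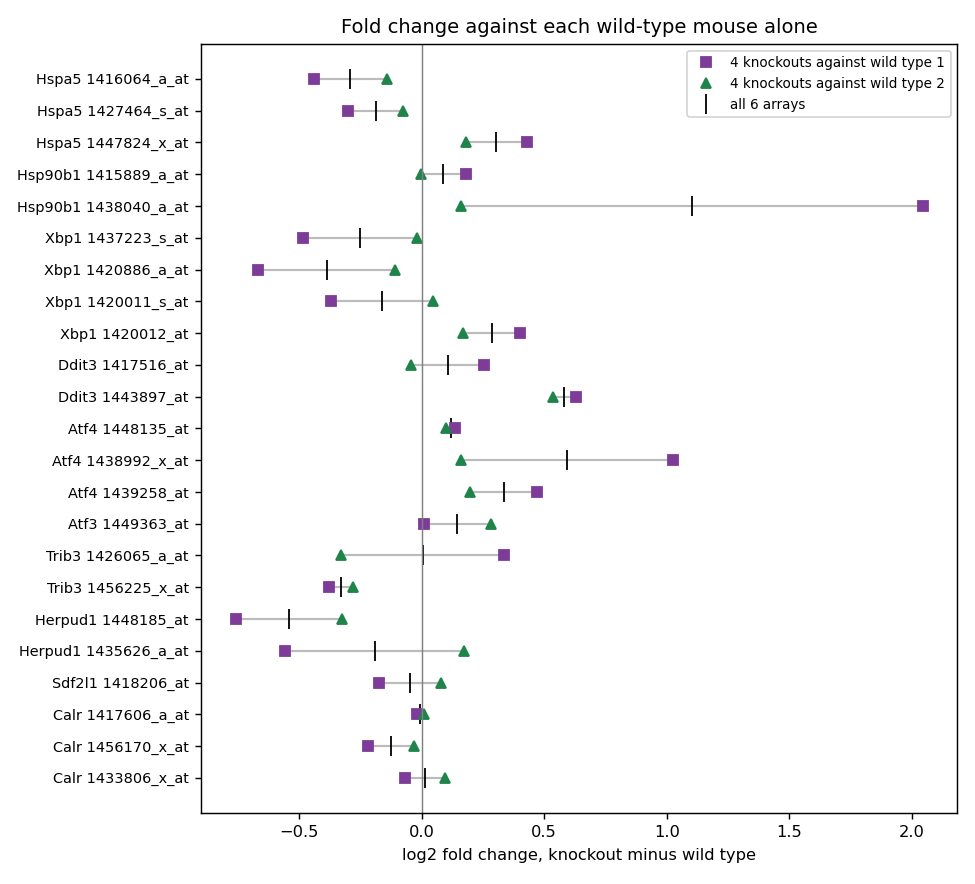
Log2 fold change (horizontal axis) of each probe set with wild type 1 as the only wild-type array (purple squares), with wild type 2 as the only one (green triangles) and with all 6 arrays (black bars). The values against wild type 1 lie farther from 0 for 21 of the 23 probe sets, up to 2.05 for Hsp90b1, where the value against wild type 2 is 0.16. The share of all probe sets that do so was not counted. Over the whole array the median was 0.15 against wild type 1 and 0.018 against wild type 2.

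The wider pathway was read from 6 lists of genes, of which 76 of 79 were measured, each on its brightest probe set. None of the 76 passed an adjusted p of 0.05 in limma, against 0% of all genes, and 5 had an unadjusted p below 0.05, all 5 with negative fold changes, where 6.49% of all genes had such a p, 4.04% above 0 and 2.45% below. The groups did not overlap for 3 of the 76 with knockouts higher and for 11 with knockouts lower, against 9.59% and 6.56% of all genes, and for the brightest probe sets of the 10 genes above these counts were 0 and 1. The balance of directions changed with the choice of probe set, for these genes and for the whole array. Over all 185 probe sets of these genes 95 were below 0, against 39.7% of all probe sets. The medians were -0.011 and 0.078, so in the main fit the lists lay below their background with either choice. After quantile normalisation the medians of the 76 brightest and of all genes were close, at -0.027 and -0.025. The groups did not overlap for 21 of the 185 with knockouts higher and 18 with knockouts lower, against 11.3% and 4.81% of all. Such a p was reached by 5 above 0 and 5 below, against 4.92% and 1.84% of all. The 5 above 0 were Mbtps1, Edem2, Ubxn4, Os9 and Hspa13, each on a dimmer probe set of its gene. By sign 45 of the 76 brightest were below 0, against 46.4% of all genes, and the medians were -0.053 for the 76 and 0.024 for all, both as log2 fold changes. Among the sensors and membrane-bound transcription factors, 4 of 9 were below 0. The brightest of them was Creb3, a membrane-bound relative of ATF6, at -0.18. The PERK gene Eif2ak3 stood at -0.39, with 1580.4 in wild type 1 against 841 to 911 in the knockouts and 846 in wild type 2, and was 0.047 without wild type 1. Creb3l1, of the same family as Creb3, read 329.5, 280.2, 345.8 and 345.3 in the knockouts and 189.6 and 221.4 in wild type, a log2 fold change of 0.55 (limma adjusted p = 0.743).

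The lumenal chaperones and folding enzymes outside the 10 genes had 16 of 19 fold changes below 0 on their brightest probe sets, with a median of -0.19, and held 4 of the 5 unadjusted p below 0.05, where 2.45% of all genes had one below 0. Over all 40 probe sets of the list 25 were below 0, against 39.7% of all probe sets, and the median was -0.079. The groups did not overlap for 5 of the 40 with knockouts higher and 7 with knockouts lower, against 11.3% and 4.81% of all. The 4 genes with an unadjusted p below 0.05 on the brightest probe set included Canx at -0.40, which encodes the membrane lectin chaperone calnexin. The others were the BiP co-chaperones Dnajb9 at -0.30 and Dnajc3 at -0.27, and the protein disulphide isomerase P4hb at -0.34. Canx read 8245.7, 9062.8, 8960 and 8575 in the knockouts and 13289.3 and 9969.1 in wild type, with a limma adjusted p of 0.738. Of the 19, only 1 had an unadjusted limma p below 0.05 without knockout 2, and 2 had one after quantile normalisation. Without wild type 1 the count below 0 was 14 of 19 and the median -0.10. In that setting 9243 of 18193 genes were below 0, with a median of -0.0053. Canx was then -0.19, Dnajb9 -0.16 and P4hb -0.093, while Dnajc3 was -0.26. Dnajc3 read 2973.5, 2905, 2895.6 and 2792.1 in the knockouts and 3488.5 and 3482.1 in wild type, so that both wild-type mice lay above all knockouts by a similar margin. Its dimmer probe sets gave -0.21, -0.093, 0.34 and -0.27, and the groups overlapped on all of them except that at -0.21. The dimmer Canx probe sets gave -0.42 and 0.084, both with overlap. Wild type 1 was the highest array for 10 of these 19 genes, against 20.8% of all genes on their brightest probe sets, and knockout 1 was the lowest for 10, against 2642 of 18193 genes. Fkbp2, a prolyl isomerase, had the highest mean signal of the list and a log2 fold change of -0.093, and Uggt1, the glycoprotein folding sensor, the smallest p above 0, at 0.12.

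In the degradation machinery that Herpud1 serves, 8 of 12 fold changes were below 0, with a median of -0.097, on the brightest probe sets. Over all 31 probe sets of the list 17 were below 0, against 39.7% of all probe sets. An unadjusted p below 0.05 was reached by 3 of the 31 above 0 and 1 below, against 4.92% and 1.84% of all. The 3 were dimmer probe sets of Edem2 at 1.38, Ubxn4 at 1.03 and Os9 at 0.76, all lowest in wild type 1. Derl2, a derlin of the extraction channel, had -0.60 with 865, 790, 813 and 618 in the knockouts against 1516.6 and 922 in wild type (unadjusted p = 0.0228, adjusted p = 0.738 in limma), and -0.25 without wild type 1. Selenos, a selenoprotein of the same complex, was the brightest at 0.053, and -0.13 without wild type 1, and the brighter probe set of Os9, a lectin of the same pathway, had 0.16. Of the translocation genes 8 of 12 were below 0, and 17 of 35 over all probe sets, with Spcs1, of the signal peptidase, at 0.072 and Ssr3 and Ssr4, of the translocon-associated complex, at -0.25 and 0.18. Without wild type 1 Spcs1 was -0.044, Ssr3 -0.11 and Ssr4 -0.11. The list of ATF4 and CHOP targets had 7 of 19 below 0 and a median of 0.035, and 10 of 19 below 0 with a median of -0.0068 without wild type 1. In it the tRNA synthetase Aars was -0.052, the oxidase Ero1a -0.25 and the mTORC1 inhibitor Ddit4 0.48, the last at 3206, 2941, 4142 and 4018 in the knockouts against 1890.7 and 3379 in wild type. Ddit4 was 0.066 and Ero1a -0.095 without wild type 1. Of the kinases and phosphatase subunits that act on eIF2alpha 2 of 5 were below 0, with Ppp1r15b and Ppp1r15a, which steer the phosphatase, at 0.083 and -0.23, and at -0.047 and -0.036 without wild type 1.

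**Figure D5:**
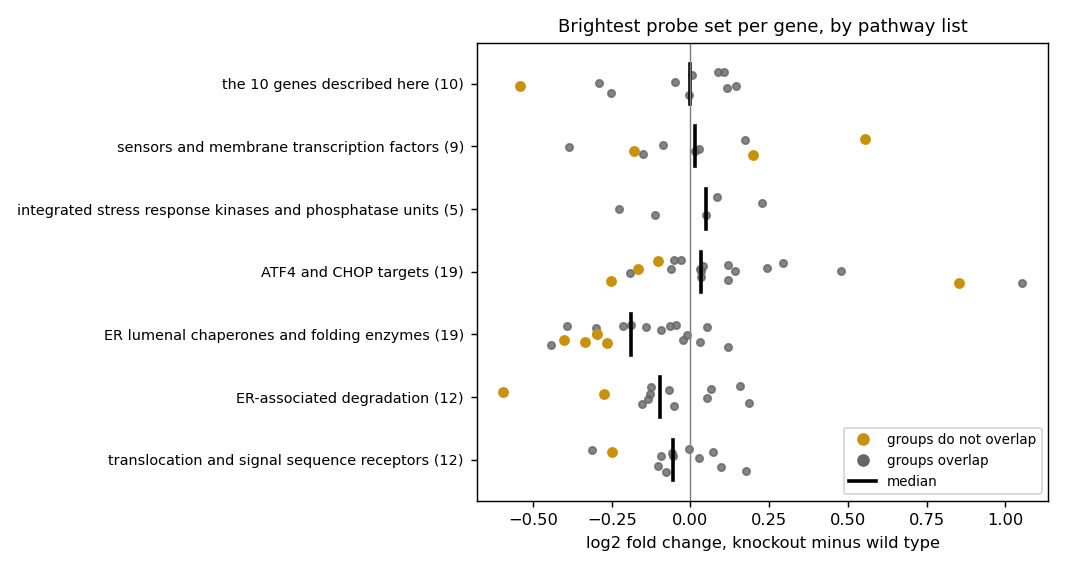
Log2 fold change, knockout minus wild type (horizontal axis), of the brightest probe set of each gene, for the 10 genes described here and for 6 lists of other pathway genes with the number measured in brackets; black bars are medians and orange points are genes whose groups do not overlap. The medians run from -0.19 for the lumenal chaperones to 0.050 for the eIF2alpha kinases and phosphatase subunits, and none of these genes passed the adjusted threshold.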

How the data were processed

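Total RNA from 6 brains was measured on 6 arrays, 4 knockout and 2 wild type, grouped by title. The authors deposited a linear signal intensity for each of 45101 probe sets. GCOS 1.3 is the only tool in the submitters' processing notes, and no label names the summary method or gives detection calls. The trimmed mean of the deposited intensity values was equal at 1000 on every array. After 64 controls were left out, 34945 probe sets had 1 symbol, 932 several and 9160 none, and the RefSeq gene table changed 0 symbols.

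Signals plus an offset of 49.6, the 20th percentile of the table, were taken to log2, which understates changes of dim genes. The contrast of knockout minus wild type was fitted to all 45037 probe sets with lmFit and eBayes with an intensity trend (limma 3.58.1, R 4.3.3), with 4 residual degrees of freedom. Tests were 2-sided, with Benjamini-Hochberg adjustment across every probe set. The fit was tested on simulated data. The brightest probe set of a gene had the highest mean log2 value over 6 arrays. Alternatives were quantile normalisation, median centring, offsets 4 and 0.25 times as large, a filter of the dimmest 40%, no trend, array weights, each array left out, and 2 arrays left out together. Named pathway genes were, in each list, the brightest, and the smallest p in each direction; Dnajb9, Dnajc3, P4hb, Mbtps1, Edem2, Ubxn4, Hspa13, Gfap and Aqp4 were added after their values were seen, as was the count of the lists over all probe sets. The members and lists were chosen with earlier results of these data known. The number of arrays limits the precision. Each mouse was a separate animal. Plots were drawn with matplotlib 3.10.9.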

Additional observations from a re-analysis of the deposited data

How the results depend on the processing

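The count of members past the adjusted threshold in limma was 0 under each alternative except without wild type 2, where it was 1, a range of 0 to 1 with single arrays left out. The count with an unadjusted p below 0.05 was 3, but 1 without the intensity trend, 0 to 6 with single arrays left out (0 without wild type 1, 6 without wild type 2) and 0 without knockout 2 and wild type 1 together. The share of all probe sets with such a p moved too, at 6.76% with all arrays, 3.61% without wild type 1, 11.8% without wild type 2 (171 past adjustment) and 3.48% without both knockout 2 and wild type 1. With median centring the median of the 23 log2 fold changes was -0.21 instead of 0.0037, while that of the whole array was -0.14 instead of 0.078. After it, all 10 brightest member probe sets and 13367 of 18193 genes were below 0. Of 319 single values under the 14 alternatives 286 kept their sign and side of the threshold, 1 passed it and 32 changed sign, and 13 of 23 probe sets never changed sign. After median centring the sign turned for the brighter Hsp90b1 probe set (-0.13), the brighter Ddit3 probe set (-0.11), the brightest Atf4 probe set (-0.096), Atf3 (-0.069), the brighter Trib3 probe set (-0.21) and the dimmest Calr probe set (-0.20). After quantile normalisation it turned for Atf3 (-0.068) and the brighter Trib3 probe set (-0.20). The brighter Trib3 probe set was also -0.00074 at the larger offset and -0.048 with array weights, where the dimmest Calr probe set was -0.021. Without knockout 2 and wild type 1 together the values were -0.047 for the brighter Hsp90b1 probe set, 0.0048 for the third Xbp1 probe set by brightness, -0.13 for the brighter Ddit3 probe set, -0.35 for the brighter Trib3 probe set and 0.26 for the dimmer Herpud1 probe set. With single arrays left out, values ran from -0.0042 to 0.19 for the brighter Hsp90b1 probe set, -0.37 to 0.044 for the third Xbp1 probe set by brightness, -0.042 to 0.25 for the brighter Ddit3 probe set, -0.0074 to 0.25 for the brightest Atf4 probe set, -0.33 to 0.34 for the brighter Trib3 probe set, -0.56 to 0.17 for the dimmer Herpud1 probe set, -0.20 to 0.077 for Sdf2l1, -0.059 to 0.044 for the brightest Calr probe set and -0.072 to 0.096 for the dimmest Calr probe set. The filter on dim probe sets left 20 of the 23, and the 3 it removed have no value there. The cause of these shifts was not tested. A lone wild-type array was assumed to vary like the other arrays. No paired analysis was possible because the labels give no number that arrays of both groups share.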

Other observations

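The single-symbol probe sets whose levels over the 6 arrays were most like those of the brightest Hspa5 probe set were, out of 23059 candidates above the dimmest 40%, those of Laptm4b and Laptm5, lysosomal membrane proteins, Csf1r, the receptor that microglia depend on, Fdft1, squalene synthase of the cholesterol pathway, and Shisa5. The measure was the root mean square difference between log2 levels, each relative to its own mean, and it ran from 0.050 for Laptm4b to 0.062 for Laptm5. Laptm4b read 10376.4, 14009, 12250.4 and 12184.7 in the knockouts, against 15226.9 and 13669.8 in wild type. Among the members the nearest to that Hspa5 probe set were its own second probe set at 0.087, the second Calr probe set by brightness at 0.13 and the brightest Xbp1 probe set at 0.13, and the farthest was the dimmer Hsp90b1 probe set at 0.93.

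Knockout 2, with little cerebellar RNA, was the highest array for 8 of the 23 member probe sets and the lowest for 2, while over all probe sets it was the highest for 6711 and the lowest for 7407 of 45037. Sdf2l1 was 581 in it against 348 to 476.5 elsewhere. Some pituitary markers were high in knockout 3, mainly Gh, Prl and Pomc, at 5930, 3690 and 1412. The summed signal of 7 pituitary markers was 11732 in it, against 1060.5 to 1717.7 in the other knockouts and 1194.2 and 1121.7 in wild type. Cga was also highest in it, at 260.4, while Lhb, Pitx1 and Tshb were not, at 155.2, 28.4 and 255.8. Knockout 3 was the highest array for 0 of the 23 member probe sets.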
